A study of Homo sapiens with 6 samples.

Results

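The expression of 45 genes of DNA replication and nucleotide supply was examined in OVCAR3 cells, a line of high-grade serous ovarian adenocarcinoma, after inhibition of the kinases CDK12 and CDK13. The genes were chosen by symbol from their known roles, among 47577 loci listed for the series. The rule uses no measured value, but earlier results of these data were known when the members and the other lists were chosen. A gene was tested where 3 or more libraries had a normalized value of 10 or above, and 44 of the 45 genes and 17568 loci in all met this minimum. The remaining member, ORC2, was listed at 0 in all 6 libraries.

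PolyA plus RNA was sequenced from OVCAR3 cells given the solvent DMSO for 6 h (3 libraries) and from OVCAR3 cells given THZ531, a covalent CDK12/13 inhibitor, at 200 nM for 6 h (3 libraries). The sample titles and characteristics name THZ531, while the treatment protocol of the same samples names THZ1, a related inhibitor, at an equal dose, and the samples were grouped by their titles. The libraries of a group are described as biological repeats of a single cell line. The values are read counts per gene that the authors divided by a size factor per library, called normalized values here, and they are not corrected for transcript length.

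Replication starts from origins that are licensed when the origin recognition complex, CDC6 and CDT1 load the ring-shaped MCM helicase onto DNA, a step that geminin blocks outside its proper time. CDC45 and the GINS complex then join MCM to form the active helicase, DNA polymerase alpha and primase lay down primers, the RFC loader places the sliding clamp PCNA, and polymerases delta and epsilon copy the strands. RPA covers single-stranded DNA, FEN1 and LIG1 join the lagging strand, and ribonucleotide reductase and thymidylate synthase supply deoxynucleotides. Many of these genes are driven by E2F transcription factors at the start of S phase and are highly expressed in dividing tumor cells.

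Between 53054048 and 70986130 reads were counted on genes per library. Pearson correlations of log2 values were at least 0.988 between DMSO libraries, at least 0.986 between THZ531 libraries and at most 0.940 between the groups. All 9 markers of serous and epithelial cells passed the minimum in OVCAR3 cells. Their summed value was between 441935 and 453034 in DMSO and between 562895 and 575442 in THZ531 libraries. The keratins KRT7, KRT8 and KRT18 had by far the largest values, so the sum mostly follows them. PAX8 fell (log2 fold change -3.18, adjusted p = 4.6e-15). MUC16 was lower in each THZ531 library without being called, and WT1 was lower on average with overlapping groups. Of 12 markers of fibroblasts, immune and endothelial cells, 5 did not reach the minimum (DCN, LUM and PDGFRB of fibroblasts among them), 2 increased (COL1A1 by 1.14 and VWF by 0.73 on the log2 scale), and their summed value was between 1628 and 1698 in DMSO and between 2844 and 3030 in THZ531 libraries. COL1A1 went from a mean of 995 in DMSO to 2190 in THZ531, so this sum mostly follows COL1A1. The groups overlapped for COL1A2, PTPRC, CD68, PECAM1 and CDH5. The part of these marker changes in the results was not tested. The libraries are bulk RNA of a single cell line. A change in the share of cells that express a marker and a change in its RNA per cell cannot be told apart.

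Words of the E2F motif were searched in the promoters of the members. The words TTTGGCGC, TTTCGCGC, TTTCCCGC and TTTGCCGC, which spell its core, were looked for on both strands in the 250 bases before each gene's start in RefSeq (GRCh38.p14), and overlapping matches were counted separately. Of the 45 members, 39 were matched to a promoter, and 14 of these (35.9%) held at least 1 word, against 502 of 11509 promoters of tested loci (4.4%) and 761 of 27305 promoters in all (2.8%). A window of 30 bases around the word is shown for genes that rose (PCNA, RFC3), that fell (POLA2, ORC3) and that were not called (MCM6, TYMS, CDT1, POLA1), each read 5′ to 3′ on the strand of the gene with the word, or its reverse complement, in capitals.
PCNA, chr20:5126663-5126692, minus strand: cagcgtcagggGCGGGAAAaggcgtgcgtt
RFC3, chr13:33818083-33818112, plus strand: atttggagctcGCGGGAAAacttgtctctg
POLA2, chr11:65261898-65261927, plus strand: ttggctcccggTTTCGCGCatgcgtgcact
ORC3, chr6:87590105-87590134, plus strand: ctgcagccgcgagggcgcGCGGGAAAtccc
MCM6, chr2:135876511-135876540, minus strand: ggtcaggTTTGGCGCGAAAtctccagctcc
TYMS, chr18:657603-657632, plus strand: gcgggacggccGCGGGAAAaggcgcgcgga
CDT1, chr16:88803743-88803772, plus strand: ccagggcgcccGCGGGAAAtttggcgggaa
POLA1, chrX:24693770-24693799, plus strand: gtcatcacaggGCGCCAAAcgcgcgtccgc

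The word lay 59 bases before the start of PCNA, 55 before that of RFC3, 53 before that of POLA2 and 12 before that of ORC3. A single start per gene was used, and other starts were not searched. For PCNA it was the start at the outer end of its deposited span of 11670 bp. The MANE transcript of PCNA in GENCODE v44 covers 5006 bp and starts further in. In MCM6 the capitals hold a pair of overlapping words. Words were found in 2 of 7 members that increased, in 2 of 6 matched members that decreased and in 10 of 25 matched members that were not called, so genes with a word were found in each class. A match is a description of the letters and does not show that a factor was bound.

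THZ531 did not move the replication genes as a block. A gene was called where it changed 1.5-fold or more with an unadjusted p no higher than 0.05, and 7 members increased (GMNN, ORC4, MCM2, GINS3, PCNA, RFC1 and RFC3), 8 decreased (ORC3, ORC5, GINS1, POLA2, PRIM1, POLD3, RFC4 and RPA2) and 29 were not called. The increased members were 15.9% of the 44 tested, against 15.7% of all loci tested, and the decreased members 18.2% against 23.9%. In either direction 34.1% of the members were called against 39.5% of all loci, so none of these shares sets the members apart from other genes.

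The lowest value of a tested member in any library was 293, for POLA2 under THZ531, so each of the 44 passed the minimum in both groups. At an adjusted p of at most 0.05 and any fold change, 25 members were higher, 13 were lower and 6 did not pass, while 68.6% of all loci tested passed in either direction (34.6% higher, 34.1% lower). At an unadjusted p of at most 0.05 and any fold change, 59.1% of the members were higher, against 35.6% of all loci, and 29.5% lower, against 35.1%. The THZ531 libraries did not overlap the DMSO libraries for 40 of the 44 members (27 above, 13 below), against 71.7% of all loci. The groups overlapped for ORC6, POLE, RFC2 and RPA1. The median log2 fold change of members was 0.17, beside -0.01 for all loci tested, and the values ranged from -2.41 for GINS1 to 0.88 for RFC3. This median was above 0 with the deposited size factors, but it was -0.0703 with libraries scaled to the same total and -0.32 with libraries scaled to RPL34, where the medians of all loci were -0.25 and -0.50.

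**Figure D1:**
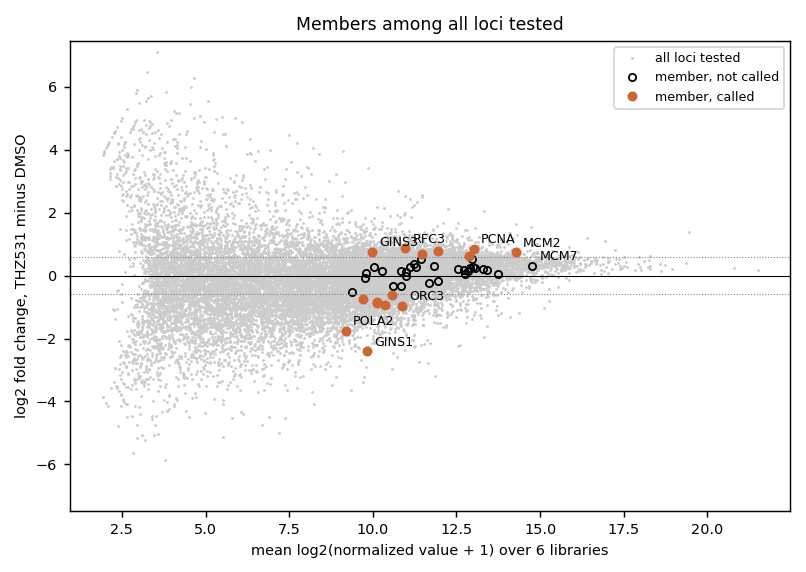
Log2 fold change (THZ531 minus DMSO) against mean log2(normalized value + 1) over the 6 libraries for the 17568 loci tested (gray dots) and the 44 members (filled orange, called; open black, not called), with dotted lines at a fold change of 1.5. Members sit in the middle and right of the cloud, and GINS1 at -2.41 and POLA2 at -1.74 lie furthest below 0 among them.

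Among the 8 licensing factors tested, 2 genes rose (25%, against 15.7% of all loci) and 2 fell (25%, against 23.9%). ORC3, a subunit at the core of the origin recognition complex (chr6:87590127-87667451), had normalized values of 2624, 2535 and 2625 in DMSO and of 1316, 1323 and 1366 in THZ531 libraries. All THZ531 libraries were far below all DMSO libraries, a fall by 0.96 on the log2 scale (SE 0.052, adjusted p = 1.6e-10, limma), from a mean of 2595 ± 51.6 to 1335 ± 27.2 (SD, n = 3). ORC5, a subunit that binds ATP (chr7:104126341-104208047), was at 1848, 1811 and 1919 in DMSO and at 1262, 1140.1 and 1273 in THZ531. The groups were again separate, and ORC5 fell by 0.60 (adjusted p = 2.5e-07), close to the threshold of 1.5-fold. It was no longer called without DMSO replicate 3 or without THZ531 replicate 2, and was at -0.55 in the second case.

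ORC4, an ATP-binding subunit of the same complex (chr2:147930396-148021551), moved the other way, with values of 2137, 2207 and 2398 in DMSO and 3636, 3741 and 3456 in THZ531. It rose by 0.68 (adjusted p = 1.2e-08) in the deposited scaling, was higher but not called when libraries were scaled to the same total (0.44), and overlaps the genes ACVR2A and MBD5 at its ends. GMNN, which encodes geminin, the inhibitor of CDT1 (chr6:24774931-24786099), was at 3052, 2986 and 2993 in DMSO and at 5287, 4972 and 5395 in THZ531. Its THZ531 libraries were all higher, a rise by 0.79 (adjusted p = 2.6e-10) from 3010.2 ± 36.1 to 5218 ± 220. GMNN was at 0.55 with libraries scaled to the same total and at 0.30 when scaled to RPL34, and was not called in either.

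The licensing factors that were not called differed less. CDT1, the MCM loading factor that geminin binds, was lower in each THZ531 library but within 1.5-fold (log2 fold change -0.33, adjusted p = 0.00011), as was CDC6, the ATPase that loads MCM with the origin recognition complex (-0.25, adjusted p = 0.00047). ORC1, the large ATPase subunit, was at 0.14 (adjusted p = 0.048) and turned to -0.10 with libraries scaled to the same total, and ORC6, which is needed for MCM loading, was at -0.07 (adjusted p = 0.41) with overlapping groups. ORC2 was listed at 0 in each library, and so were CLK1 and FAM126B in the same stretch of chromosome 2, while NIF3L1 between CLK1 and ORC2 had a mean of 2351 ± 246 in DMSO. No level of ORC2 can be given from these values.

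**Figure D2:**
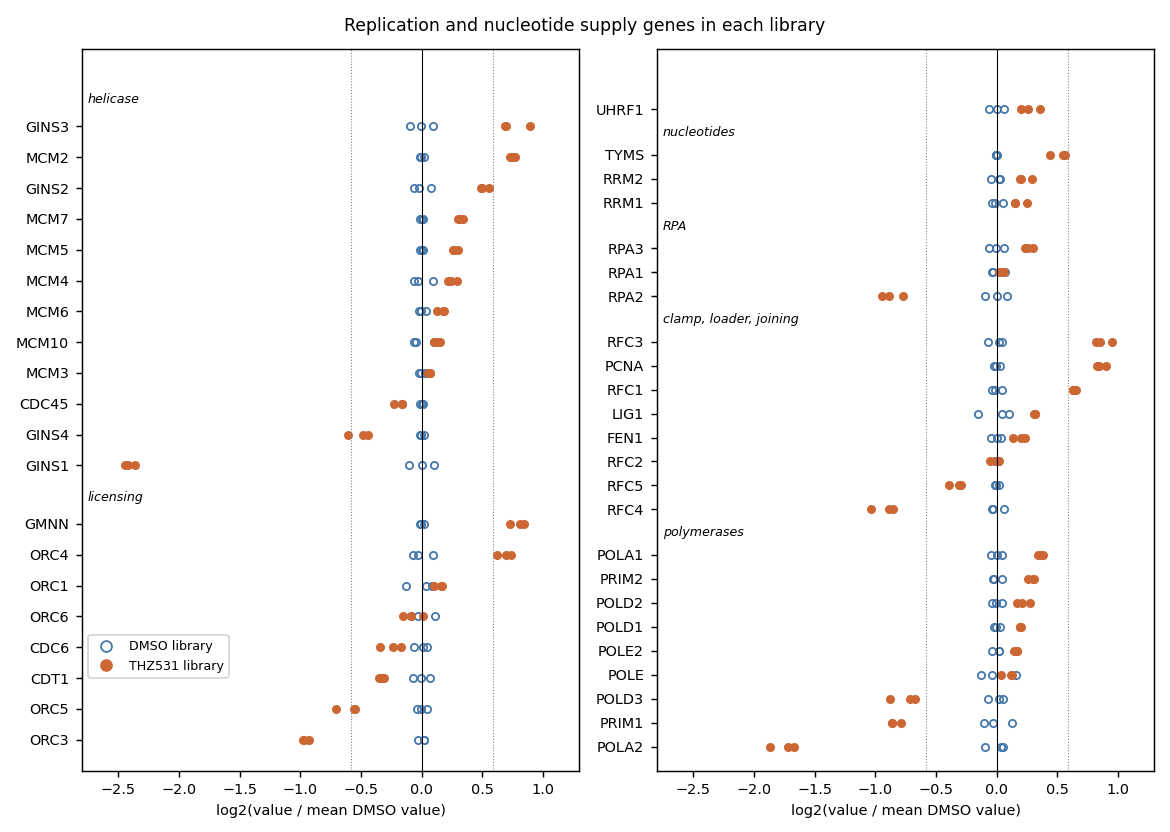
Log2 of each normalized value over the mean DMSO value of its gene (x axis) for the 44 members in rows grouped by role, with open blue points for the 3 DMSO libraries, filled orange points for the 3 THZ531 libraries and dotted lines at 1.5-fold. The GINS1 points of THZ531 lie near -2.4 and those of POLA2 between -1.9 and -1.6, while the 6 MCM ring subunits lie at or above 0 and MCM2 alone among them passes the line.

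The helicase group held the member with the largest change. GINS1, also called PSF1, is a subunit of the GINS complex that opens DNA together with MCM and CDC45 (chr20:25407673-25448563). Its normalized values were 1949.8, 2249 and 2100.1 in DMSO and 392, 385 and 407 in THZ531 libraries. The 3 THZ531 values lay close together and 5.32-fold below the DMSO mean, a fall by 2.41 on the log2 scale (SE 0.073, adjusted p = 3.2e-13), from 2099.7 ± 150 to 395 ± 11.3 (SD, n = 3). GINS1 was the first of the members by size of change in the deposited, same-total and RPL34 scalings (-2.41, -2.65 and -2.90).

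The partners of GINS1 did not follow it. GINS3, or PSF3 (chr16:58392443-58406147), was at 833, 729 and 779 in DMSO and at 1446, 1254 and 1261 in THZ531. It rose by 0.76 (SE 0.077, adjusted p = 2.5e-07), with all THZ531 values above the highest DMSO value, and was at 0.51 and 0.26 when libraries were scaled to the same total and to RPL34, below the threshold in both. GINS2, or PSF2, was higher without passing 1.5-fold, from 2309 ± 118 to 3303 ± 83.4 (0.52, adjusted p = 1.6e-07). GINS4, or SLD5, was lower, with 786, 792 and 808 in DMSO and 571, 522 and 585 in THZ531 (-0.51, adjusted p = 2.9e-05), and it was called as decreased when libraries were scaled to the same total (-0.75) or to RPL34. Of the 4 GINS subunits, 2 were therefore higher and 2 lower in each of these scalings.

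MCM2, a subunit of the hexameric MCM ring (chr3:127598410-127622436), had values of 15456, 15120.2 and 15090.5 in DMSO and 25879.7, 25551 and 25230.3 in THZ531. The replicates were tight in both groups, and MCM2 rose by 0.75 (SE 0.032, adjusted p = 1.2e-11) in the deposited scaling, by less than the threshold in the same-total scaling (0.50) and in the RPL34 scaling (0.25). The other 5 ring subunits were within 1.5-fold. MCM7 was at 0.32 (adjusted p = 1.7e-07), MCM5 at 0.27 (adjusted p = 4.2e-06), MCM4 at 0.25 (adjusted p = 8.0e-05), MCM6 at 0.16 (adjusted p = 0.0012) and MCM3 at 0.06 (adjusted p = 0.1), and each of these signs turned when libraries were scaled to RPL34. MCM10, which helps to activate the helicase, was at 0.13 (adjusted p = 0.055) and also turned under that scaling. CDC45 was lower in each THZ531 library (-0.19, adjusted p = 0.001).

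Per kb of the MANE transcript in GENCODE v44, MCM7 had the highest level of the ring subunits in DMSO, 10135 ± 91.0 per kb, and MCM6 the lowest, 1840.3 ± 37.4. MCM2 and MCM3 stood at similar levels per kb in DMSO, 4433 ± 59.2 and 4330.3 ± 82.6. With THZ531 they were apart, at 7441 ± 94.6 for MCM2 and 4526 ± 26.2 for MCM3. The 4 GINS subunits, which form a complex with 1 copy of each, were at 634 (GINS1), 879 (GINS2), 355 (GINS3) and 211 (GINS4) per kb in DMSO and at 119, 1257, 600.0 and 148 with THZ531. GINS1 thus passed from the second level among them to the last. These levels use the length of 1 transcript per gene, whereas the reads were counted on the exons of another annotation.

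None of the 9 polymerase and primase genes increased, against 15.7% of all loci, and 3 decreased (33.3%, against 23.9%). POLA2, the accessory B subunit of DNA polymerase alpha (chr11:65261932-65298685), had values of 1111, 1094 and 1002 in DMSO and of 293, 336 and 325 in THZ531 libraries. The groups were far apart, and the mean fell 3.36-fold, from 1069 ± 58.4 to 318 ± 22.3 (log2 fold change -1.74, SE 0.088, adjusted p = 7.6e-11). PRIM1, the catalytic subunit of primase (chr12:56731580-56752335), was at 1477, 1396 and 1639.7 in DMSO and at 826, 829 and 874 in THZ531. It fell by 0.83 (SE 0.071, adjusted p = 3.1e-08), with a wider spread in DMSO than in THZ531. POLD3, an accessory subunit of polymerase delta (chr11:74592580-74643076), was at 1092, 1027 and 1117 in DMSO and at 657, 679 and 586 in THZ531. The groups were separate and POLD3 fell by 0.75 (SE 0.078, adjusted p = 3.1e-07).

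The large subunits of the same enzymes were not lower in the deposited scaling. POLA1, the catalytic subunit of polymerase alpha, had values of 2116, 2178 and 2049.8 in DMSO and 2678, 2751 and 2732 in THZ531, and with 0.36 (adjusted p = 5.6e-06) it was the highest of the group, although it turned to -0.13 when scaled to RPL34. PRIM2, the large subunit of primase, was at 0.29 (adjusted p = 7.6e-05) and turned to -0.20 in that scaling. POLD1, the catalytic subunit of polymerase delta, was at 0.20, POLD2, its other core subunit, at 0.21, and POLE2, the B subunit of polymerase epsilon, at 0.16, with adjusted p-values of 0.00024, 0.00014 and 0.024. POLE, the catalytic subunit of polymerase epsilon, was at 0.10 (adjusted p = 0.29), and its groups overlapped. POLD1, POLD2, POLE and POLE2 were below 0 when libraries were scaled to the same total. The falls thus concerned 1 subunit each of polymerase alpha, primase and polymerase delta, and neither POLE nor POLE2 was called. The small subunits of polymerase epsilon, which are no members, were not called either, with POLE3 at 0.09 (adjusted p = 0.13) and POLE4 at 0.57 (adjusted p = 1.7e-06), close to the threshold.

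The clamp and its loader moved in both directions. PCNA, the sliding clamp that tethers the polymerases (chr20:5114953-5126622), was at 6250.4, 6106 and 6051 in DMSO and at 11464, 10908 and 10990.0 in THZ531. All THZ531 libraries were higher, a rise by 0.86 (SE 0.037, adjusted p = 1.4e-11) from 6136 ± 103 to 11120.5 ± 300 (SD, n = 3). RFC3, a small subunit of the clamp loader (chr13:33818128-33966558), had values of 1495, 1523 and 1402 in DMSO and 2848, 2666 and 2605 in THZ531. It rose by 0.88 (SE 0.056, adjusted p = 1.1e-09), the largest rise among the members. PCNA and RFC3 were also called when libraries were scaled to the same total (0.61 and 0.63), while scaled to RPL34 they were at 0.36 and 0.38 and not called.

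RFC1, the large subunit of the loader (chr4:39287449-39366367), was at 5929.6, 6020.2 and 6277 in DMSO and at 9423, 9569 and 9402 in THZ531. It rose by 0.64 (SE 0.038, adjusted p = 4.4e-10) in the deposited scaling and was at 0.40 in the same-total scaling, where it was not called. RFC4, a small subunit (chr3:186789900-186806482), was at 1889, 1769 and 1762 in DMSO and at 1001.3, 976 and 881 in THZ531. The groups were separate in the opposite direction to RFC1 and RFC3, and RFC4 fell by 0.92 (SE 0.066, adjusted p = 4.0e-09). RFC5 was lower without passing 1.5-fold (-0.33, adjusted p = 3.8e-05), and RFC2 was at -0.01 (adjusted p = 0.8) with overlapping groups. The flap endonuclease FEN1 was at 0.19 (adjusted p = 0.00038) and DNA ligase LIG1 at 0.32 (adjusted p = 0.00012), and both were below 0 when scaled to RPL34.

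RPA2, the middle subunit of the RPA trimer that carries its main phosphorylation sites (chr1:27891524-27914797), was the only RPA gene called. Its values were 1598, 1413 and 1512 in DMSO and 882, 815 and 785 in THZ531. The highest THZ531 value was well below the lowest DMSO value, and RPA2 fell by 0.87 (SE 0.07, adjusted p = 1.9e-08), from 1508 ± 92.5 to 827 ± 49.5. RPA1, the large subunit that binds DNA, had values of 7205, 6675 and 6735 in DMSO and 7156, 7038 and 6948 in THZ531 (0.04, adjusted p = 0.43), with overlapping groups. RPA3, the small subunit, was at 992, 946 and 909 in DMSO and 1171, 1136 and 1116 in THZ531 (0.27, adjusted p = 0.0019), and turned to -0.23 when scaled to RPL34.

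No gene of nucleotide supply among the members was called. TYMS, the thymidylate synthase that makes dTMP, was at 6668, 6666 and 6699.9 in DMSO and at 9848, 9053 and 9735 in THZ531, 0.51 higher on the log2 scale (adjusted p = 1.1e-08) and below 1.5-fold. The subunits of ribonucleotide reductase differed less. RRM1, the large subunit, had values of 6644, 6217 and 6322 in DMSO and 7599.7, 7089.6 and 7093 in THZ531 (0.18, adjusted p = 0.0012), and RRM2, the small subunit of S phase, was at 0.23 (adjusted p = 0.00012). Both were below 0 when libraries were scaled to the same total, at -0.060 and -0.015, whereas TYMS was above 0 in each scaling (0.27 and 0.02). UHRF1, which recruits the maintenance methyltransferase DNMT1 to replicated DNA, was at 2191, 2294 and 2398 in DMSO and at 2744, 2636 and 2942 in THZ531 (0.27, adjusted p = 0.00034), was not called, and turned to -0.22 when scaled to RPL34.

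Because subunits of 1 complex moved apart, their ratios were taken within each library, where the scaling cancels. The pairs were chosen after the values of the members had been seen, so the ratios are a description with no test. The log2 ratio of GINS1 to GINS3 was 1.23, 1.62 and 1.43 in DMSO and -1.88, -1.70 and -1.63 in THZ531 libraries, a change of -3.16 or 8.96-fold. The ratio of GINS1 to GINS2 changed by -2.92 (7.59-fold). For POLA2 over POLA1 the log2 ratio was -0.93, -0.99 and -1.03 in DMSO and -3.19, -3.03 and -3.07 in THZ531, which is a 4.31-fold change.

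In the clamp loader, the log2 ratio of RFC4 to RFC3 went from 0.29 ± 0.07 to -1.51 ± 0.06 (SD, n = 3), and that of RFC4 to RFC1 changed by -1.56. In the origin recognition complex, ORC3 over ORC4 went from 0.21 ± 0.08 to -1.43 ± 0.08. These 6 pairs had the largest shifts of the 15 examined. Smaller shifts were seen for GINS4 over GINS3 (-1.27), RPA2 over RPA3 (-1.13), PRIM1 over PRIM2 (-1.12), CDT1 over GMNN (-1.12), POLD3 over POLD1 (-0.95), RPA2 over RPA1 (-0.90) and MCM3 over MCM2 (-0.68). In each of these 13 pairs every THZ531 library lay below every DMSO library. For POLE2 over POLE (0.06) and RRM2 over RRM1 (0.04) the groups overlapped. A small subunit of polymerase epsilon from the list of other replication factors, POLE4, was looked at after its value was seen, and its log2 ratio to POLE went from 0.58 ± 0.02 to 1.06 ± 0.03 with separate groups.

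**Figure D3:**
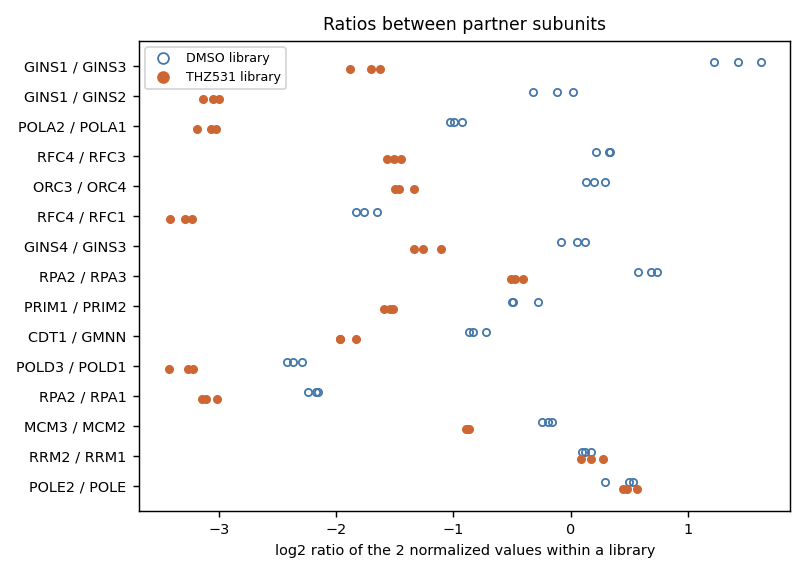
Log2 ratio of the normalized values of a pair of genes within each library (x axis) for 15 pairs in rows, with open blue points for DMSO and filled orange points for THZ531 libraries. GINS1/GINS3 moves furthest to the left (-3.16), the points of the groups are apart in 13 pairs, and they overlap for RRM2/RRM1 and POLE2/POLE.

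The direction of the small differences depended on how the libraries were put on 1 scale. With the deposited size factors 29 members were above 0 and 15 below. When each library was scaled to the same total, which moved all loci by -0.24, 17 were above and 27 below, and when it was scaled to RPL34, the reference transcript of the qPCR assays, which moved all loci by -0.49, 9 were above and 35 below. RPL34 itself was at 14248, 12843 and 11904 in DMSO and at 18164, 18337 and 18239 in THZ531. The 9 members above 0 under each scaling were the 7 that increased together with GINS2 and TYMS.

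The calls followed the same order. In the same-total scaling 2 members increased (PCNA and RFC3) and 9 decreased, with GINS4 added to the 8. Of the 17568 loci tested, 1647 increased and 5615 decreased in that scaling. In the RPL34 scaling 0 members increased in limma at these thresholds and 13 decreased, with CDC6, CDT1, CDC45, GINS4 and RFC5 added. Of all loci, 1078 increased and 7524 decreased there, so no called share of members was above that of all loci in either scaling. At an unadjusted p no higher than 0.05 and any fold change in the RPL34 scaling, 5 members were higher (11.4%, against 10.4% of all loci) and 33 lower (75.0%, against 60.1%). The 8 genes that fell in the deposited scaling were called as decreased in both others. At a fold change of 2 in the deposited scaling, GINS1 and POLA2 were the 2 members still called and none was increased. Of the 17568 loci tested, 1353 increased and 2689 decreased at that threshold, so the members were called less often than all loci.

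**Figure D4:**
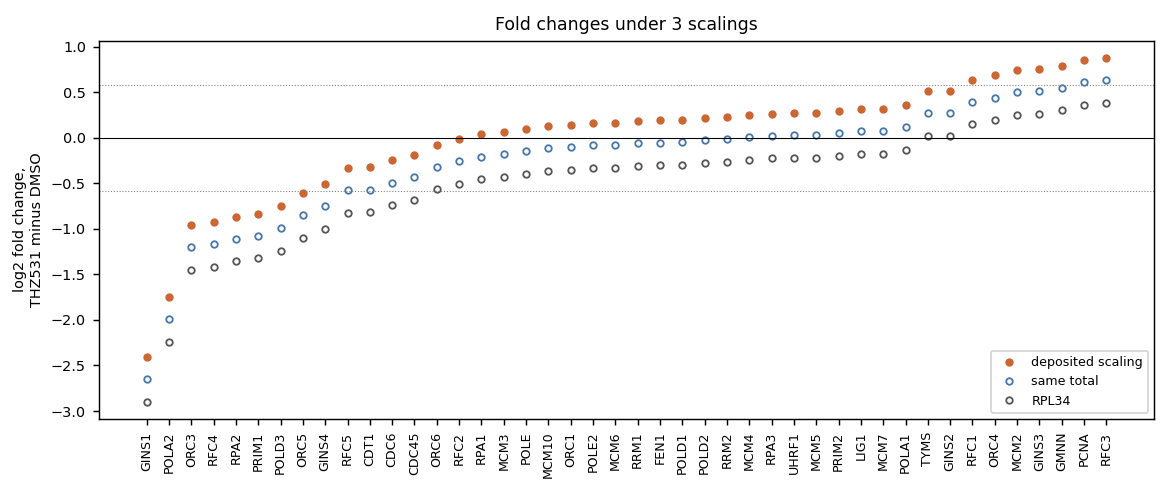
Log2 fold change (THZ531 minus DMSO, y axis) of the 44 members (x axis, ordered by the deposited value) with the deposited size factors (filled orange), with libraries scaled to the same total (open blue) and to RPL34 (open black), and dotted lines at 1.5-fold. The order of the genes is shared, 29, 17 and 9 members lie above 0 in the 3 scalings, and the 8 genes from GINS1 to ORC5 with the lowest deposited values stay below the lower line in each.

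The genes that work beside the members were given by lists drawn from textbook roles. Of 41 other replication factors tested, 7 increased (17.1%, against 15.7% of all loci) and 5 decreased (12.2%, against 23.9%), and their median was 0.02. TICRR, or treslin, which brings CDC45 to origins, rose from 1294 ± 70.1 to 2409.9 ± 154 (0.90, adjusted p = 2.9e-09), and DBF4, an activator of the CDC7 kinase, from 1201 ± 19.3 to 1996 ± 89.9 (0.73, adjusted p = 1.2e-08). HELLS, a chromatin remodeler of the SNF2 family (0.86, adjusted p = 2.1e-10), and RIF1, a regulator of replication timing (0.82, adjusted p = 7.3e-10), rose as well. DBF4B, the other activator of CDC7, moved the opposite way, from 733 ± 21.7 to 432 ± 24.7 (-0.76, adjusted p = 7.7e-07). The kinase CDC7 itself was at -0.10 (adjusted p = 0.26).

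Among the 5 that fell, DNA2, a nuclease-helicase of the lagging strand, was at 436, 392 and 336 in DMSO and at 86.9, 158 and 151 in THZ531 (-1.59, adjusted p = 2.4e-06). ASF1B, a histone chaperone, fell from 2256 ± 95.7 to 791 ± 27.8 (-1.51, adjusted p = 6.3e-12), and CHAF1A, the large subunit of chromatin assembly factor 1, by 0.81 (adjusted p = 2.2e-08). The locus of CHTF8, a subunit of an alternative clamp loader, fell by 1.37 (adjusted p = 2.9e-09), but it is joined in the file with DERPC and the reads of the 2 genes cannot be separated. The rises in this list were called for 2 genes in the same-total scaling and for none in the RPL34 scaling.

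Of 35 other genes of nucleotide supply, 3 increased (8.57%, against 15.7% of all loci) and 5 decreased (14.3%, against 23.9%). The 3 enzymes that build UMP de novo, grouped here after their values were seen, all fell. CAD, which carries out the first steps, was at 5752, 5454 and 4871 in DMSO and at 3210.4, 3401 and 3068 in THZ531 (-0.73, adjusted p = 1.5e-08). DHODH, the mitochondrial dihydroorotate dehydrogenase, was at 805, 804 and 842 and at 424, 441 and 382 (-0.97, adjusted p = 5.1e-08). UMPS, which completes UMP, was at 10356, 10583 and 10441 and at 4655, 5040.1 and 5116 (-1.08, adjusted p = 4.1e-12). For each of the 3 enzymes the groups were separate. UMP is the precursor of the other pyrimidine nucleotides.

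TK2, the mitochondrial thymidine kinase, also fell at a low level, from 138 ± 20.9 to 49.9 ± 10.9 (-1.46, adjusted p = 4.0e-05), and ADSS2 of AMP synthesis by 0.66 (adjusted p = 1.3e-09). PPAT, the first committed enzyme of purine synthesis, rose from 2645 ± 155 to 5278 ± 78.5 (1.00, adjusted p = 4.6e-11). DCK, which salvages deoxycytidine, rose by 0.78 (adjusted p = 5.5e-08), and CTPS1, which turns UTP into CTP, by 0.63 (adjusted p = 5.4e-10). In the same-total scaling 1 of these 3 rises was called, and in the RPL34 scaling none was.

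Of 20 regulators of the G1/S transition, 2 increased (10%, against 15.7% of all loci) and 4 decreased (20%, against 23.9%), so neither share was above that of all loci. CDC25A, a phosphatase that activates CDK2, rose by 0.91 (adjusted p = 2.1e-09), and SKP2, which targets CDK inhibitors for degradation, by 0.63 (adjusted p = 6.6e-09). E2F5, a repressor of the E2F family, was at 526, 567 and 504 in DMSO and at 17.6, 14.8 and 25.0 in THZ531, a 27.8-fold lower mean (-4.76, adjusted p = 2.2e-11). E2F8, an atypical repressor, fell by 1.35 (adjusted p = 9.2e-09), E2F3 by 0.86 (adjusted p = 5.4e-07) and RB1, the retinoblastoma protein that restrains E2F, by 0.86 (adjusted p = 7.9e-09). E2F1 was lower but within 1.5-fold (-0.39, adjusted p = 0.00014).

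Of 13 genes of G2 and mitosis, 4 increased (30.8%, against 15.7% of all loci) and 1 decreased (7.69%, against 23.9%), with a median of 0.36 and a range from -0.79 to 0.88. CDK1 was at 0.48 (adjusted p = 3.2e-08) and MKI67, a marker of dividing cells, at 0.36 (adjusted p = 5.1e-07), whereas the mitotic cyclin CCNB1 was at -0.26 (adjusted p = 3.3e-05). None of the 3 passed 1.5-fold. The 4 that increased were CCNB2, another mitotic cyclin (0.88), UBE2C (0.82), TPX2 (0.62) and AURKA (0.59), and AURKB decreased (-0.79). In the same-total scaling the median of the 13 was 0.12 with 1 increased and 1 decreased, and in the RPL34 scaling it turned to -0.13, as did MKI67 (-0.13) and CDK1 (-0.014), with 2 decreased. Over all 17568 loci 1647 increased and 5615 decreased in the same-total scaling, and 1078 and 7524 in the RPL34 scaling.

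Gene length did not order the members. Over 44 members the Spearman correlation of the log2 fold change with gene length was -0.08, against -0.05 over 13244 loci with a single symbol and a MANE transcript, and it was -0.05 with the longest intron, 0.06 with the first intron and -0.11 with the number of AATAAA words in introns. These points share libraries and sequence composition, and the values are descriptions. The 8 members that decreased had a median length of 38808 bp (16583 to 81673), the 7 that increased of 19352 bp (5006 to 90342) and the 29 not called of 25292 bp (4328 to 329221). POLA1 with 303069 bp and PRIM2 with 329221 bp were the longest members, and neither was called. RFC4, which fell, and GMNN, which rose, are 16583 and 11163 bp long.

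**Figure D5:**
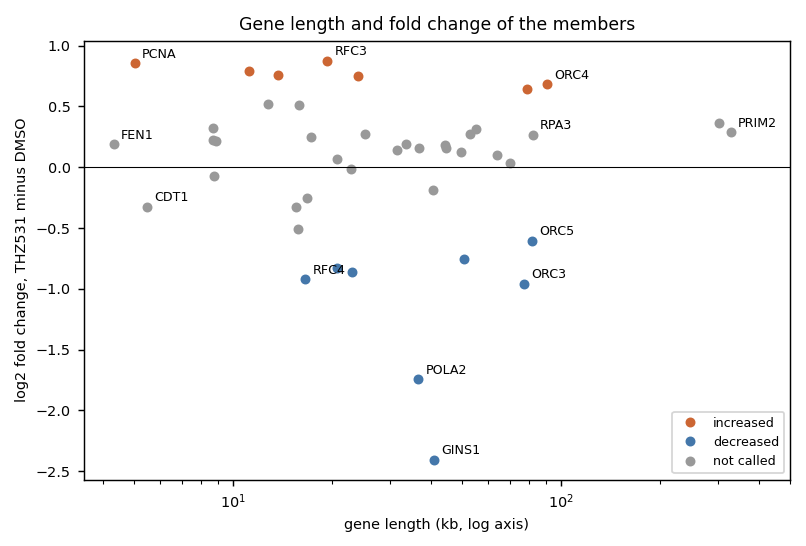
Log2 fold change (THZ531 minus DMSO) against gene length in kb on a log axis for the 44 members, colored by call. Increased and decreased genes share the range from about 17 to 82 kb, and the points of POLA1 and PRIM2 at the right lie above 0.

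AATAAA is the usual signal for cleavage and polyadenylation, and the use of such signals inside introns is the outcome the study examined under CDK12/13 inhibition. The median number of AATAAA words in introns was 25 for members that decreased, 16 for those that increased and 11 for those not called, with ranges from 18 to 99, from 4 to 76 and from 0 to 354. The first intronic word of the 2 members that fell most and of 2 that rose is shown in hg38 with 20 bases on each side, read 5′ to 3′ on the strand of the gene with the word in capitals.
GINS1, chr20:25412794-25412839, plus strand: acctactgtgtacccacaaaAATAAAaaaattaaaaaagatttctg
POLA2, chr11:65266462-65266507, plus strand: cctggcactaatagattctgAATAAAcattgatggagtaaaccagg
PCNA, chr20:5116496-5116541, minus strand: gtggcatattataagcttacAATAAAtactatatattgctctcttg
MCM2, chr3:127599895-127599940, plus strand: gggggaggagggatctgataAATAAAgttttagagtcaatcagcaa

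The word lies 4918 bases into intron 1 of GINS1 and 4110 bases into intron 1 of POLA2. In PCNA it lies 948 bases into intron 4 and in MCM2 367 bases into intron 2. In RFC3, the member that rose most, it lies 584 bases into intron 1. ORC4, RFC1 and GINS3, which rose, also hold their first word in intron 1. GMNN, which rose, and RPA2, which fell, hold it in intron 2. The other members that fell, ORC3, ORC5, PRIM1, POLD3 and RFC4, hold it in intron 1. The word was thus found in introns of members of both classes, and its intron position was not tested. The values per gene do not show where transcripts end, and use of these words was not tested.

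Loci without a symbol inside the deposited spans of the members give a limited view of where reads lay. There were 13 such loci in 9 members, and 3 of them passed the minimum. Inside UHRF1 an unnamed locus near its start (chr19:4907730-4910007) had low values of 11.9, 11.1 and 3.19 in DMSO and 18.9, 33.0 and 34.1 in THZ531. Of the 3 it alone was called (1.73, adjusted p = 0.0093), with groups that did not overlap and an SD of 8.48 in THZ531, close to the DMSO mean of 8.74. The unnamed loci inside RFC3 and POLD2 were at 0.12 (adjusted p = 0.52) and -0.32 (adjusted p = 0.23), with overlapping groups. The locus at RFC3 (chr13:33846190-33850825) lies within its deposited span of 148431 bp. It is beyond the end of the MANE transcript, whose gene length is 19352 bp. PCNA-AS1, a transcript antisense to PCNA, rose from 34.6 ± 11.5 to 65.9 ± 6.95 (0.96, adjusted p = 0.011).

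Other loci overlap 7 of the members, so reads could be split between them. They include ACVR2A (1.12, adjusted p = 9.0e-09) and MBD5 (-4.33, adjusted p = 4.3e-09) at the ends of ORC4, RPS29 at POLE2 (0.55, adjusted p = 3.9e-07) and ENOSF1 at TYMS (0.03, adjusted p = 0.6). GINS2, GINS3, GINS4 and RPA3 are the other members overlapped in this way. The kit kept strand, while the strand setting of the counting is not given in the sources used here, so reads of a member and of an antisense partner such as PCNA-AS1 cannot be told apart with certainty.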

How the data were processed

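RNA from OVCAR3 cells treated with DMSO (3 libraries) or 200 nM THZ531 (3 libraries) was polyA selected and sequenced. The authors mapped reads to hg38 with STAR (2.7.5a in the submitters' processing notes), counted them on FAST DB genes with featureCounts and deposited a signal that is never negative, the count divided by a DESeq2 size factor per library. In each library all values above 0 were whole multiples of 1 step within 0.01, so the reads could be recovered. No column of values was left out.

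Log2(value + 1) was tested with limma 3.58.1 (trended variance, R 4.3.3) without covariates over the loci at 10 or above in 3 or more libraries. Fold changes are on that scale, which understates those of low genes. A call needed a change of 1.5-fold or more and an unadjusted p no higher than 0.05, as in the methods of the study, and p-values were adjusted over all loci by the Benjamini-Hochberg method. The procedure was tested on simulated data. edgeR 4.0.16 and DESeq2 1.42.0 on the recovered reads, pseudocounts of 0.1 and 10, other minima (none, 50), scalings (same total, upper quartile, RPL34), a replicate block, a 2-fold threshold, calls by adjusted p, untrended variance in limma and leaving out each library were the alternatives.

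Members that were called, and the highest and lowest of each role group, were given per library, along with the 4 genes that changed most in each direction in each of 3 further lists, among those called with groups that do not overlap. CDC7, DBF4B, POLE3, POLE4, E2F1 and ADSS2, the called genes of G2 and mitosis, and the values per library of other members, were added after the values were seen. The members and lists were chosen with earlier results of these data known. The value of 1 marker gene is not reported here. Promoter windows were taken from RefSeq (GRCh38.p14) and introns from GENCODE v44 on hg38.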

Additional observations from a re-analysis of the deposited data

How the results depend on the processing

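The 7 increased and 8 decreased members were also the calls of edgeR and DESeq2 on the recovered reads, which over all loci called 2582 and 2680 as increased and 4281 and 4108 as decreased. The counts of members changed with the scaling, the fold threshold and, by 1 gene (ORC5), without DMSO replicate 3 or THZ531 replicate 2. Scaled to the same total, 2 members increased, and the median log2 fold change of members was -0.0703. Scaled to RPL34, 0 increased by limma and 13 decreased, with a median of -0.32. A fold change of 2 left 0 increased and 2 decreased in limma. At an unadjusted p no higher than 0.05 and any fold, 26 members were higher in limma (59.1%, against 35.6% of all loci) and 13 lower (29.5%, against 35.1%). The median by edgeR was 0.15. Without each library in turn, 7 members increased and 7 to 8 decreased. Of the other replication factors 2 increased in the same-total scaling, 0 increased and 17 decreased in the RPL34 scaling, and 0 and 3 passed a fold change of 2. Of the other nucleotide genes these were 1, then 0 and 12, then 0 and 2. Over all 17568 loci these were 1647, then 1078 and 7524, then 1353 and 2689. No share of the 2 lists was above that of all loci in these settings.

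Signs turned in the same-total and the RPL34 scaling for ORC1 (-0.10 and -0.35), MCM3 (-0.18 and -0.43), MCM6 (-0.081 and -0.33), MCM10 (-0.12 and -0.37), POLD1 (-0.048 and -0.30), POLD2 (-0.028 and -0.28), POLE (-0.14 and -0.39), POLE2 (-0.082 and -0.33), FEN1 (-0.053 and -0.30), RPA1 (-0.21 and -0.46), RRM1 (-0.060 and -0.31), RRM2 (-0.015 and -0.27) and the unnamed locus inside RFC3 (-0.12 and -0.37). They turned in the RPL34 scaling alone for MCM4 (-0.24), MCM5 (-0.22), MCM7 (-0.17), POLA1 (-0.13), PRIM2 (-0.20), LIG1 (-0.18), RPA3 (-0.23) and UHRF1 (-0.22). Leaving out each library moved RFC2 between -0.031 and 0.0063, the latter without THZ531 replicate 2. Both scalings lower every gene by nearly the same amount, which turns small values. Over all loci 1647 increased and 5615 decreased in the same-total scaling, and 1078 and 7524 in the RPL34 scaling.

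Libraries with the same replicate number did not deviate together (correlations of deviations 0.0017, 0.019 and -0.039), so the numbers were not taken as pairs. With a replicate block 7 members increased and 8 decreased, and over all loci 2745 increased and 4173 decreased, against 2751 and 4197 without it. With 3 libraries per group of 1 cell line, a single time and a single dose, the values per gene tell neither transcript ends nor protein levels.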
